A study of Mus musculus with 15 samples.

Results

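The Kruppel-like factors (KLFs) were examined as 10 genes, *Klf10*, *Klf11*, *Klf2*, *Klf4*, *Klf5*, *Klf6*, *Klf3*, *Klf9*, *Klf13* and *Klf16*, of 35880 gene symbols in the table, and each was found in it under its own symbol. *Klf10* was chosen by its CPM value, the highest of many samples, and the other 9 members as Klf genes of the same table, so the high level of *Klf10* is described here without a test. The cells are LL2, a Lewis lung carcinoma line of the mouse, in a version that carries luciferase. RNA was sequenced from the parental line (LL2 WT), from *KEAP1* KO #1, #2 and #3, and from *NRF2* KO, with 3 biologic replicates of each line and 15 samples in all. Each knockout line grew from a single cell that had taken up a CRISPR plasmid carrying Cas9, GFP and a guide RNA to *Keap1* or to *Nfe2l2*, the gene of NRF2, so each stands for 1 clone and a difference between lines cannot be told apart from a difference between clones. The 3 *KEAP1* KO lines are called clones #1, #2 and #3 below. All cells were split and then grown for a day in complete medium. Values are counts scaled to a total of 1 M per sample (CPM), with the SD over n = 3 samples of a line. In bulk RNA, fewer expressing cells and less RNA per cell cannot be told apart.

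KLFs are transcription factors with zinc fingers at the C-terminal end that bind GC-rich and CACCC sequences. *Klf2*, *Klf4*, *Klf5* and *Klf6* are mostly known as activators, *Klf3* as a repressor that binds the corepressor CtBP, and *Klf9*, *Klf10*, *Klf11*, *Klf13* and *Klf16* as factors that can recruit the corepressor Sin3a. *Klf10* and *Klf11* are known as genes that TGF-beta induces early, and several KLFs respond quickly to serum and stress. KEAP1 holds the antioxidant factor NRF2 at a low level, and its loss lets NRF2 act.

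As a check of the labels, *Keap1* averaged 23.0 ± 1.03 CPM in the parental line and 11.8 ± 0.889, 5.53 ± 1.57 and 5.58 ± 1.595 CPM in clones #1, #2 and #3, with calls by limma in #2 and #3. *Nfe2l2* RNA was at 119 ± 24.0 CPM in *NRF2* KO beside 186 ± 19.6 CPM in the parental line, a difference that is not called, and the clones were also lower (96.4 to 123 CPM). *Nqo1*, an NRF2 target, was called higher in each clone and lower in *NRF2* KO. *Krt18*, *Krt8* and *Vim* were expressed (line means of 296 to 534, 75.3 to 172 and 1681 to 4289 CPM), and *Epcam* and *Cdh1* were under 0.1 CPM, the level of 3 reads at the stated average depth. The defining markers of other cells were at or near 0 for T lymphocytes (*Cd3e*), for lung epithelium (*Scgb1a1*, *Sftpc*) and for leukocytes and macrophages (*Ptprc*, *Adgre1*), while *Cd68* had line means of 2.85 CPM in the parental line, 6.49, 13.8 and 22.0 CPM in clones #1, #2 and #3 and 2.47 CPM in *NRF2* KO. The fibroblast markers *Col1a1* and *Pdgfrb* had line means of at most 0.461 and 4.21 CPM. Of the endothelial markers, *Cdh5* had line means of 0.0227, 0.104, 0.819, 1.25 and 0.197 CPM in the same order, and those of *Pecam1* ran from 3.08 to 5.54 CPM. *Pecam1* is one of the genes that moved with *Klf10*, and its longest run of A is 43 bases.

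A transcript of *Klf10* holds a long run of A, and its sequence is shown because most of the genes that moved with *Klf10*, though not the one most like it, hold a long run of A or T. In GENCODE M21 (build GRCm38), *Klf10* lies on chromosome 15 from 38291463 to 38300706 on the minus strand and has 6 transcripts of 326 to 3044 bases. The shortest, Klf10-204, has 3 exons, and its exon 2 carries 33 A in a row inside annotated coding sequence, at positions 175 to 207 of the transcript. None of the other Klf10 transcripts overlaps the run, and their longest run of A is 7 bases. The run with 20 bases on each side covers chr15:38300339-38300411 on the minus strand, with the run in capitals.

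Klf10-204: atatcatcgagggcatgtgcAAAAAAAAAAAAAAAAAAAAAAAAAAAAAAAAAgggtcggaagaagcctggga

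*Klf6* and *Klf13* are called members in opposite directions and are the members whose promoters are shown. Windows around the transcription start were matched in RefSeq (GRCm38.p6) for 7 of the 10 members, namely *Klf11*, *Klf2*, *Klf4*, *Klf6*, *Klf3*, *Klf9* and *Klf13*. Each window has 300 bases. That of *Klf6* is chr13:5861239-5861538 on the plus strand and that of *Klf13* is chr7:63938866-63939165 on the minus strand. Capitals mark the Klf box CACCC and the GC box GGGCGG on either strand.

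Klf6: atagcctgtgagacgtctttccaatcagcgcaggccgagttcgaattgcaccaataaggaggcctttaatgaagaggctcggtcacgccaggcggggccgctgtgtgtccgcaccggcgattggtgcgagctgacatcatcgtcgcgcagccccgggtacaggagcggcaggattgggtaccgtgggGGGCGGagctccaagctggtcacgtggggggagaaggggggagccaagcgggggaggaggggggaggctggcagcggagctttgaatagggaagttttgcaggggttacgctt
Klf13: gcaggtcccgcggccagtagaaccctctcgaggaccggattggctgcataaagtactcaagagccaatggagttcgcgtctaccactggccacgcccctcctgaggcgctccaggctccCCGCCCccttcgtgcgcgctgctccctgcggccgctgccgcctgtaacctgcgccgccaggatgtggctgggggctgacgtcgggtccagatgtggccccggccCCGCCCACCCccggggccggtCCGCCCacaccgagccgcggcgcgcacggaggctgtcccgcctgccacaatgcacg

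The *Klf6* window holds 1 GC box and no CACCC, and that of *Klf13* holds 3 GC boxes and 1 CACCC that overlaps one of them. A GC box is present in 6 of the 7 windows, against 35.7% of the 32851 promoters in the table, and CACCC in 4 of the 7, against 57.5%. The windows of the 7 members have 63.0% to 77.7% GC, and the median of all promoters is 52.7%. The antioxidant response core TGACNNNGC occurs in 2 of the 7 (*Klf6* and *Klf3*), against 12.4% of all promoters. The Smad box CAGACA occurs in 1 (*Klf3*), against 21.0%, and the cAMP response letters TGACGT in 2 (*Klf9* and *Klf13*), against 7.51%. Both strands were searched, and a match describes the letters in the window only.

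*Klf10*, a repressor of the Sin3a-binding group, had the highest value of all genes in 10 of the 15 samples. The parental line had 4126, 12695 and 14261 CPM in replicates 1, 2 and 3. Clone #1 had 13965, 19864 and 19927 CPM, clone #2 had 16836, 17756 and 25433 CPM, and clone #3 had 15545, 20419 and 14231 CPM. *NRF2* KO had 35028, 16047 and 17006 CPM. The lowest value was LL2 WT replicate 1 and the highest *NRF2* KO replicate 1, which are 8.49-fold apart, while the other 13 samples lie between.

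As a share of all CPM, *Klf10* took from 0.413% to 3.51% of a sample, with a median of 1.68%. The LL2 WT shares were 0.413%, 1.27% and 1.43%, and those of clone #1 were 1.40%, 1.99% and 1.99%. Clone #2 had 1.68%, 1.78% and 2.55%, clone #3 had 1.56%, 2.04% and 1.42%, and *NRF2* KO had 3.51%, 1.61% and 1.70%. *Klf10* was second in 4 samples (LL2 WT replicates 2 and 3, clone #1 replicate 1 and *NRF2* KO replicate 3), each time behind *Eef1a1*, a translation elongation factor. It was 24th in LL2 WT replicate 1, where *Eef1a1*, *Gapdh* and *Rps2* led. These ranks are by CPM, which is not scaled for transcript length.

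**Figure D1:**
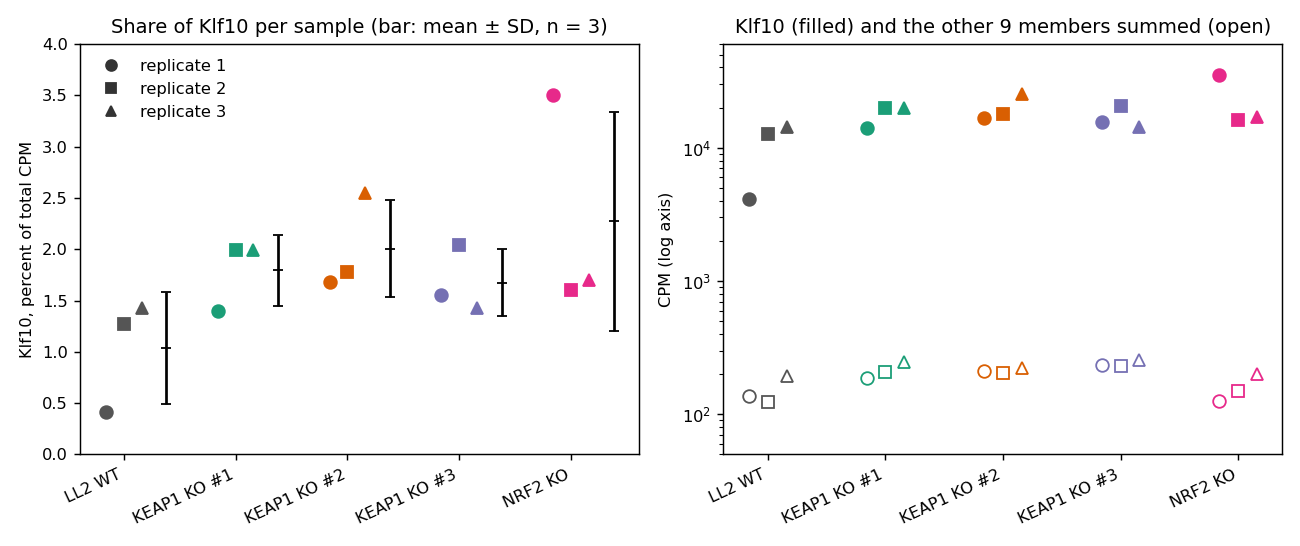
The left panel plots the percent of total CPM that *Klf10* takes in each of the 15 samples by line, with the mean ± SD beside the points, and the right panel plots on a log axis the CPM of *Klf10* (filled) and the sum of the other 9 members (open). The share runs from 0.413% in LL2 WT replicate 1 to 3.51% in *NRF2* KO replicate 1, and the other 9 members together stay between 124 and 255 CPM.

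The other 9 members together took 0.0124% to 0.0255% of a sample, and *Klf10* had 30.2 to 279 times their summed CPM. Per kilobase of the longest annotated transcript, *Klf10* had a median of 5531 CPM over the 15 samples. The next members on this scale were *Klf6* with 16.3, *Klf16* with 10.8, *Klf9* with 7.29 and *Klf5* with 5.19 CPM per kilobase. *Klf3* (4.08), *Klf4* (2.06), *Klf13* (1.91), *Klf2* (1.29) and *Klf11* (0.650) were lower. So *Klf10* stands far above its family on the scale per length as well.

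No knockout line was called different from LL2 WT in its level of *Klf10*, and replicates of a line lay up to several-fold apart. The line means in rising order were 10360 ± 5455 CPM for LL2 WT, 16732 ± 3260 for clone #3, 17919 ± 3425 for clone #1, 20008 ± 4721 for clone #2 and 22694 ± 10692 for *NRF2* KO, and each line overlaps the next. Tests were made with limma on log2(CPM + 0.1) over 14652 genes, and called means an absolute log2 fold change over 1 and a p under 0.05 after Benjamini-Hochberg adjustment. For *Klf10* the log2 fold change was 0.96 in clone #1, 1.12 in #2, 0.87 in #3 and 1.23 in *NRF2* KO, with a standard error of 0.42 (adjusted p = 0.116, 0.0582, 0.134 and 0.280 from limma). None is called, although all samples of clone #2 and of *NRF2* KO exceeded those of the parental line, which 23.4% and 8.68% of all tested genes also did. Without LL2 WT replicate 1 the values were 0.39, 0.55, 0.30 and 0.66. Without LL2 WT replicate 2 or 3, clone #2 reached 1.36 or 1.44 and was called (adjusted p = 0.0374 and 0.0293 from limma). Under quantile normalization, which keeps only the rank of a gene in its sample, clones #2 and #3 were called, both at 1.02 (adjusted p = 0.0441 and 0.045 from limma). *Klf10* ranked first in every sample of these clones and 24th, second and second in LL2 WT replicates 1, 2 and 3. The value of 1.02 follows from these ranks alone.

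No other KLF had a high correlation with *Klf10*. Over the 15 samples Pearson's r with *Klf10* ran from −0.24 for *Klf13* to 0.38 for *Klf5*, with a median of 0.15, and the median over all 11675 genes compared (mean of at least 1 CPM) was 0.02. The median of the 9 rests on single samples: leaving out each in turn, which was added after the data were seen, it ran from −0.09 without LL2 WT replicate 1 to 0.41 without *NRF2* KO replicate 1. Spearman's rho ran from −0.16 for *Klf13* to 0.41 for *Klf5*. Over deviations from the line means, r ran from −0.13 for *Klf16* to 0.30 for *Klf2*. Without the samples farthest from the median of *Klf10* (*NRF2* KO replicate 1 and LL2 WT replicate 1) r was 0.51 for *Klf5*, 0.46 for *Klf6* and between −0.14 and 0.34 for the rest. *NRF2* KO replicate 1 has the highest *Klf10* of all samples and the lowest *Klf4* (3.26 CPM). LL2 WT replicate 1 has the lowest *Klf10* and also the lowest *Klf2*, *Klf5* and *Klf6* (1.25, 4.24 and 37.0 CPM). Samples of a line share a clone and CPM share a total, so these coefficients describe the samples and carry no p.

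The genes most like *Klf10* were mostly at low levels, and most of them carry a run of at least 31 A or T in a transcript. The 5 genes with the highest r over the 15 samples were *Gm11225* (r = 0.97, rho = 0.93), *Il23a* (0.96, 0.86), *Or8b44* (0.95, 0.91), *Stox2* (0.95, 0.86) and *Vmn1r13* (0.93, 0.79). *Il23a* codes for a cytokine subunit, *Or8b44* for an olfactory receptor and *Vmn1r13* for a vomeronasal receptor. *Gm11225* had 5.25, 13.5 and 14.1 CPM in LL2 WT, 13.3, 17.3 and 20.4 in clone #1, 19.5, 15.5 and 22.3 in clone #2, 13.9, 18.5 and 13.9 in clone #3 and 27.1, 14.1 and 18.1 in *NRF2* KO. *Or8b44* had its lowest value (5.12 CPM) in LL2 WT replicate 1 and its highest (33.0 CPM) in *NRF2* KO replicate 1, the same extreme samples as *Klf10*. *Il23a* went from 0.308 to 4.72 CPM between them. Without these 2 samples r was 0.88 for *Gm11225*, 0.86 for *Il23a*, 0.86 for *Or8b44*, 0.90 for *Stox2* and 0.58 for *Vmn1r13*. Over deviations from the line means *Gm11225*, *Or8b44*, *Il23a*, *Ccdc184* and *Stox2* were the highest, at r = 0.96, 0.94, 0.94, 0.92 and 0.92. The lowest r belonged to *Gm48583* and *Gm48446* (both −0.83, rho −0.38 and −0.43) and to *Cnpy2* (−0.77). The values of *Gm48583* and *Gm48446* rest on LL2 WT replicate 1, with 16.8 and 19.0 CPM, since both were at or near 0 in the other 14 samples. Without the same 2 samples r was −0.08 for *Gm48583* and −0.56 for *Cnpy2* and could not be computed for *Gm48446*.

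A threshold of r = 0.8, set after these values were seen, was passed by 20 genes. GENCODE M21 has transcripts for 19 of them under these or older symbols, and 18 of the 19 (94.7%) hold at least 31 A or 31 T in a row and so share a stretch of 31 bases with Klf10-204 on one of the strands. Of the 11525 compared genes with transcripts, 87 (0.755%) hold such a run. The 18 include *Pde6a* (a phosphodiesterase of rods, 3.22 to 40.6 CPM), *Trpm3*, *Gnaz*, *Calb1* (49.2 to 492 CPM) and *Gm29013*, which went from 14.5 CPM in LL2 WT replicate 1 to 1820 CPM in *NRF2* KO replicate 1. The exception with a transcript is *Gm11225*, whose longest run of A is 17 bases. Most genes with a run did not move with *Klf10*: the median r of the 87 was 0.18, and their r ranged from −0.38 to 0.96. Stretches of 31 bases are the unit by which the study's tool assigns reads at its default setting, and 13 of the 4143 distinct stretches of *Klf10* also occur in 210 other genes. *Klf3* shares stretches with 3720 other genes and *Klf13* with 2846, and the sequence of these stretches was not examined. The longest runs of A or T in *Klf3* and *Klf13* are 14 and 30 bases, so neither gene holds a run of 31. Whether Klf10-204 was among the study's transcripts is not given in the sources used here, and the part of the run in the level of *Klf10* was not tested.

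**Figure D2:**
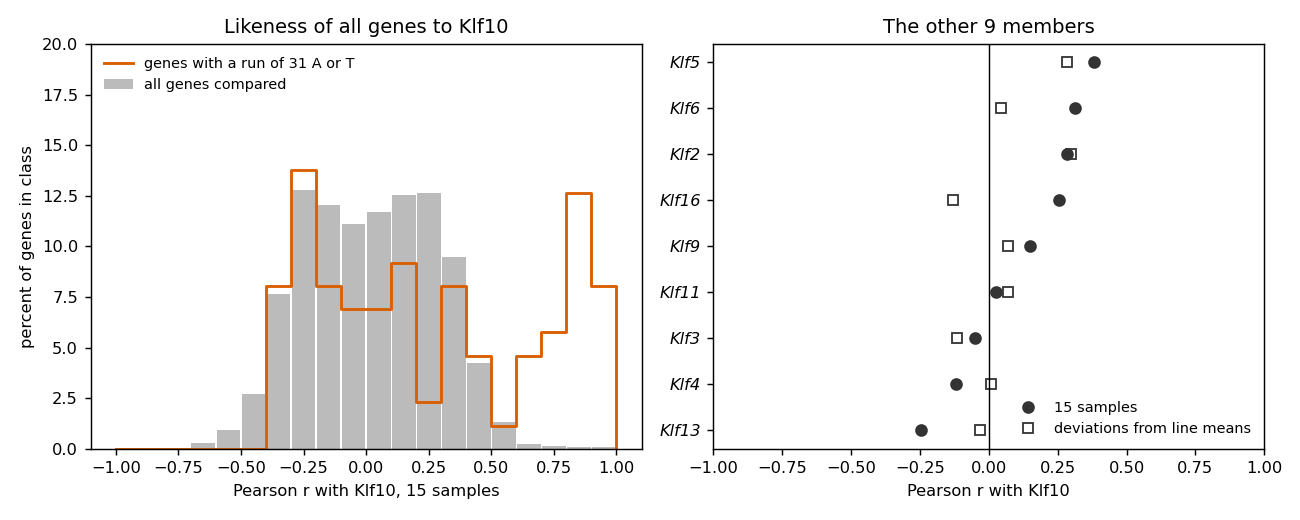
The left panel plots the share of genes (percent of class) by Pearson's r with *Klf10* over 15 samples for all 11675 genes compared (grey) and for the 87 genes with a run of 31 A or T (line), and the right panel plots r for the other 9 members over the samples (filled) and over deviations from line means (open). Of the 87 genes, 18 lie above 0.8, beside 20 of all genes compared, and no member passes 0.38.

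Against LL2 WT, 1 of the 10 members was called in clone #1 (8.54% of all tested genes were, 667 higher and 584 lower, or 553 and 724 after rescaling by the median ratio), 2 in clone #2 (13.7%), 2 in clone #3 (13.4%) and 0 in *NRF2* KO (0.464%). In *NRF2* KO 2 members, *Klf10* and *Klf5*, had an unadjusted p under 0.05 (11.2% of all tested genes had). All 10 members passed the filter on low values. The median log2 fold change of the members was 0.46, 0.22, 0.32 and 0.13 in this order, beside 0.11, 0.03, 0.02 and 0.04 over all tested genes. The calls belong to *Klf5*, *Klf6* and *Klf13*, and the other 7 members were not called against LL2 WT.

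**Figure D3:**
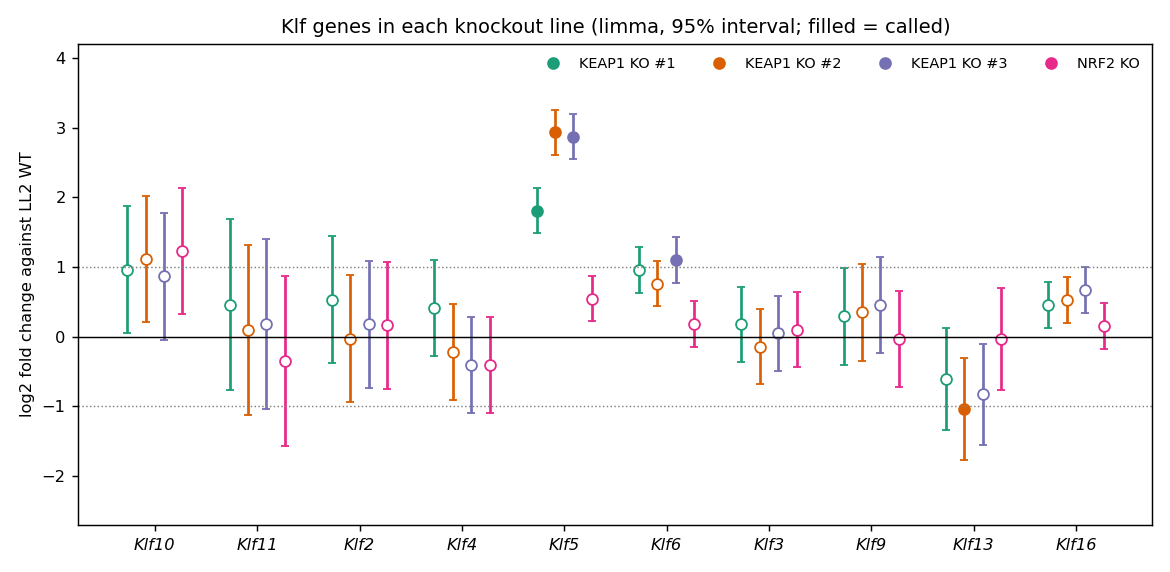
The plot shows the log2 fold change of each member against LL2 WT with its 95% interval from limma, by knockout line, with filled points for called genes and dotted lines at 1 and −1. *Klf5* stands apart at 1.81, 2.93 and 2.87 in the 3 *KEAP1* KO clones, and the intervals of *Klf10* are among the widest, from −0.04 to 1.77 in clone #3.

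*Klf5*, an activator known for driving proliferation of epithelial cells, rose in all 3 *KEAP1* clones in graded steps. The parental samples had 4.24, 4.80 and 5.61 CPM and those of *NRF2* KO 6.47, 8.302 and 6.75 CPM. Clone #1 had 14.1, 17.4 and 20.9 CPM, clone #3 had 36.4, 34.0 and 37.8 CPM and clone #2 had 37.8, 37.2 and 38.0 CPM. The groups LL2 WT, *NRF2* KO and clone #1 do not overlap with each other or with the rest, while clones #2 and #3 do. It differed from the parental line by a log2 fold change of 1.81 in clone #1 (adjusted p = 4.88e-06), 2.93 in #2 (2.6e-08) and 2.87 in #3 (3.06e-08), with a standard error of 0.15, and 0.55 in *NRF2* KO (adjusted p = 0.165), all from limma. Between clones, clone #2 exceeded #1 by 1.12 (adjusted p = 0.000477) and #3 exceeded #1 by 1.06 (0.000716), whereas #3 and #2 differed by −0.06 (95% interval −0.39 to 0.26). *NRF2* KO was lower than clones #1, #2 and #3, with log2 differences of −1.26, −2.39 and −2.32 (adjusted p = 8.72e-05, 1.6e-07 and 1.8e-07), which was called in each. Of all tested genes, 2.86% were called higher in all 3 *KEAP1* clones, as *Klf5* was. *Klf5* also varied little within lines, with a pooled SD of 0.18 on the log2 scale, beside 0.57 for *Klf10* and 0.28 for the median tested gene. Clone #1, which has the lowest *Klf5* of the 3, also has the highest *Keap1* of them (11.8 CPM beside 5.53 and 5.58). *Nqo1* was lowest of them in clone #2, with log2 fold changes against LL2 WT of 3.97, 3.19 and 4.02 in #1, #2 and #3. The part of *Keap1* and *Nqo1* in the grading of *Klf5* was not tested. The means of *Cd68* and *Cdh5* also rise from the parental line to clone #1 and further to clones #2 and #3, and their part was not tested.

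Of all tested genes, 4.58% were called between clones #2 and #1, 4.63% between #3 and #1 and 0.485% between #3 and #2, and 6.7%, 10.7% and 11.2% between *NRF2* KO and clones #1, #2 and #3. In the same order 1, 1 and 0 of the 10 members were called, and 1, 2 and 1. These calls are those of *Klf5* and 1 of *Klf13*.

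*Klf6*, an activator that serum and injury induce early, rose in clone #3 and was higher in both other *KEAP1* clones by less than the size threshold. The parental samples had 37.0, 37.4 and 50.1 CPM and those of *NRF2* KO 37.5, 49.6 and 54.6 CPM. Clone #1 had 68.9, 80.7 and 92.2 CPM, #2 had 70.5, 67.7 and 71.3 CPM and #3 had 85.6, 85.5 and 94.96 CPM. All 9 *KEAP1* KO samples lay above all LL2 WT and *NRF2* KO samples. The log2 fold change was 1.11 ± 0.15 (SE) in clone #3 (adjusted p = 0.000141 from limma), which is called. It was 0.96 in #1 (adjusted p = 0.000744) and 0.76 in #2 (0.00224), both under the size threshold, and 0.18 in *NRF2* KO (0.725). Without LL2 WT replicate 3 or clone #1 replicate 1, the value in #1 became 1.103 or 1.069 and was called. Against *NRF2* KO the clones differed by 0.78, 0.58 and 0.92 (adjusted p = 0.0038, 0.0147 and 0.000681), none past the size threshold.

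*Klf4*, one of the factors that reprogram cells to pluripotency, and *Klf2*, known for quiescence of endothelium, were low. *Klf4* had 5.50, 5.45 and 11.8 CPM in LL2 WT, 8.39, 8.94 and 11.3 in clone #1, 5.80, 6.09 and 6.25 in #2, 4.47, 5.14 and 6.60 in #3 and 3.26, 6.56 and 7.03 in *NRF2* KO. *Klf2* ranged from 1.25 CPM in LL2 WT replicate 1 to 4.60 CPM in LL2 WT replicate 3, so that the parental line holds both its extremes. Their log2 fold changes against LL2 WT ran from −0.40 to 0.42 for *Klf4* and from −0.03 to 0.53 for *Klf2*, and none was called. The 95% interval for *Klf2* in clone #1 was −0.38 to 1.44. Without LL2 WT replicate 3 this value was 1.07 and was called (adjusted p = 0.0476 from limma).

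Among the repressors, *Klf3*, which binds CtBP, hardly differed between line means (19.99 ± 3.696 to 24.9 ± 4.30 CPM), and its 95% intervals against LL2 WT lay within −0.68 to 0.72. *Klf9*, a gene that glucocorticoids induce, had 22.6, 16.2 and 44.1 CPM in the parental samples and 19.4, 19.7 and 39.5 CPM in *NRF2* KO. The *KEAP1* clones were more even, from 25.6 to 37.1 CPM over their 9 samples, and all of them fall inside the range of LL2 WT. *Klf11*, induced early by TGF-beta, had 2.66, 1.46 and 5.51 CPM in the parental samples and between 1.22 and 5.78 CPM elsewhere, with line means that overlap throughout. None of these was called in any comparison.

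*Klf13*, known as an activator of the chemokine gene *Ccl5* in lymphocytes, was called lower in clone #2, and its values in both other *KEAP1* clones did not pass. The parental samples had 19.7, 12.22 and 25.7 CPM and those of *NRF2* KO 14.8, 13.8 and 28.4 CPM. Clone #1 had 10.5, 10.15 and 16.2 CPM, #2 had 7.82, 7.44 and 12.18 CPM and #3 had 8.31, 9.67 and 13.7 CPM. The highest sample of #2 lies just below the lowest of LL2 WT, and both other clones overlap LL2 WT. The log2 fold change was −0.61 in #1 (adjusted p = 0.211), −1.03 in #2 (0.0327) and −0.83 in #3 (0.079), with a standard error of 0.34, and −0.03 in *NRF2* KO (0.985), from limma. *NRF2* KO exceeded clone #2 by 1.00 (adjusted p = 0.0483), just past both thresholds. The call in #2 was lost with a pseudocount of 1 CPM (−0.97), with no filter on low values or with only this clone and the parental line in the fit (adjusted p = 0.0607 and 0.0687 from limma), and also without LL2 WT replicate 1 (−0.98) or 3 (−0.79) and without clone #2 replicate 1 (−0.94) or 2 (−0.91).

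*Klf16*, a Sin3a-binding factor of GC-rich promoters, was higher in every *KEAP1* KO sample than in any LL2 WT sample. LL2 WT had 22.4, 27.6 and 17.5 CPM and the 9 *KEAP1* KO samples had 28.9 to 38.7 CPM, while *NRF2* KO with 23.1, 27.7 and 23.1 CPM overlaps LL2 WT. The log2 fold changes of 0.46, 0.52 and 0.67 had an adjusted p of 0.0466, 0.0196 and 0.00516 (limma) but stayed under the size threshold, so they are not called. In *NRF2* KO it was 0.15 (adjusted p = 0.781). With *Klf5* and *Klf6* it makes 3 of 10 members whose 9 *KEAP1* KO samples all lie above LL2 WT, beside 12.9% of all tested genes, and 0 members lay below in this way (7.69%).

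**Figure D4:**
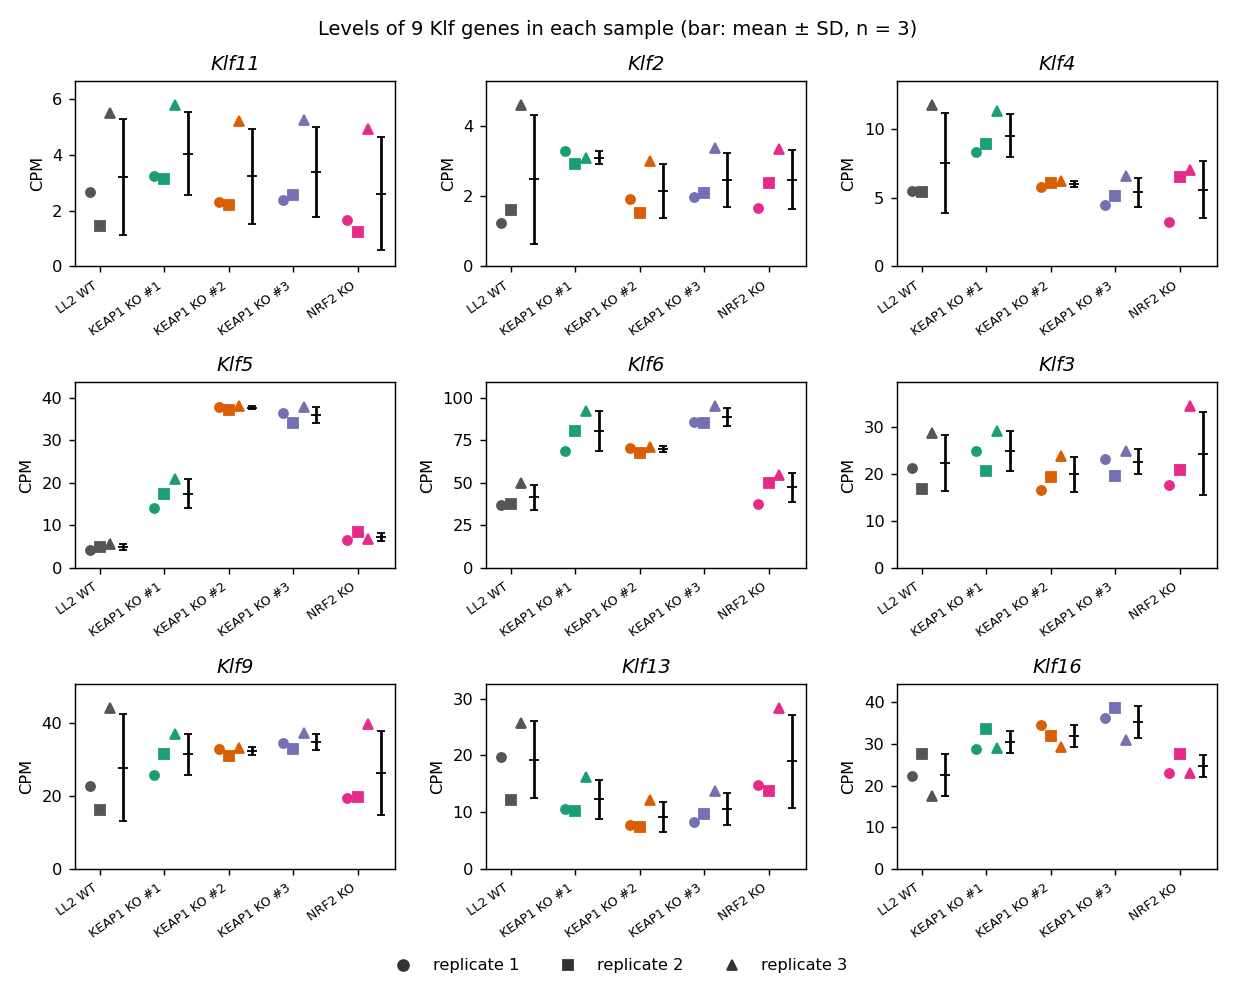
Each panel plots the CPM of a member in the 15 samples by line, with a marker shape for each replicate and the mean ± SD (n = 3) beside the points, on axes that start at 0. *Klf5* steps up from LL2 WT through *KEAP1* KO #1 to #3 and #2, and the triangles of replicate 3 lie on top in all lines for *Klf11*, *Klf4*, *Klf6*, *Klf3*, *Klf9* and *Klf13*.

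Replicate 3 was the highest of its line in 5 of 5 lines for 6 members (*Klf11*, *Klf13*, *Klf3*, *Klf4*, *Klf6* and *Klf9*), as it was for 20.5% of all tested genes. *Klf11* shows it most, with replicate 3 above the mean of the other two replicates by 0.84 to 1.72 on the log2 scale. *Klf16* went the other way, with replicate 3 lowest in 4 lines and below by 0.10 to 0.50. *Klf10* took part only weakly, since replicate 3 was its highest in 3 lines and its lowest in 1. The immediate early gene *Fos* was at 173 CPM in LL2 WT replicate 3 and at 0.758 and 2.45 CPM in the other LL2 WT samples, and *Egr1* was at 63.6 CPM there and at 1.19 and 4.82 CPM in those. In clones #1, #2 and #3 and *NRF2* KO, replicate 3 of *Fos* was at 5.83, 2.31, 1.297 and 4.96 CPM, the highest of each line, with 0.213 to 1.79 CPM in the other samples there. So replicate 3 of *Fos* led in every line, and its value over 10 CPM was that of LL2 WT replicate 3. What sets replicate 3 apart is not given in the labels, and its part in the KLF levels was not tested.

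**Figure D5:**
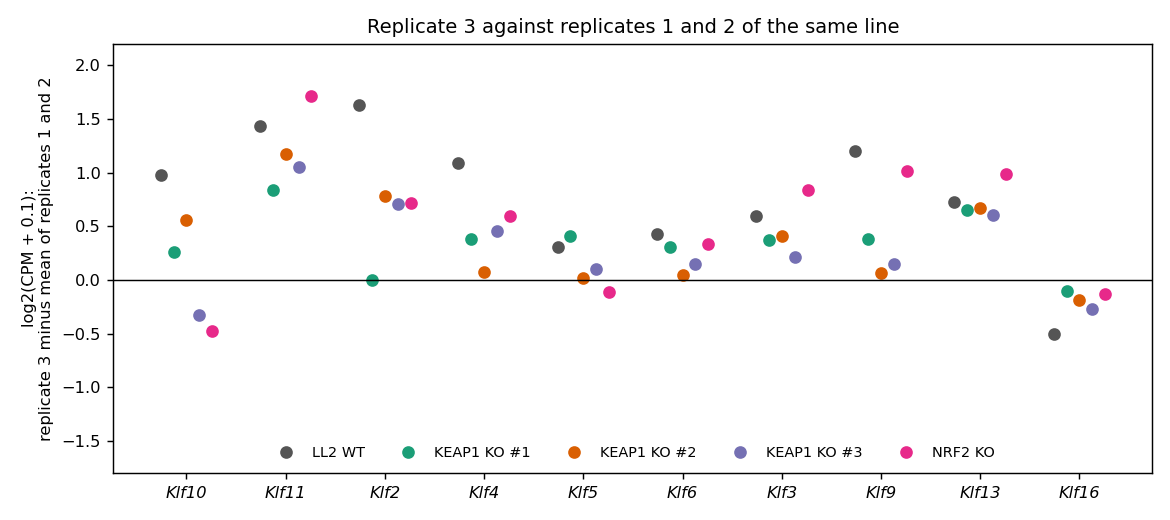
For each member, points give the log2(CPM + 0.1) of replicate 3 minus the mean of replicates 1 and 2 in each of the 5 lines. All 5 points are above 0 for 6 members, all are below 0 for *Klf16*, and *Klf10* scatters from −0.48 to 0.98.

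Of the other Klf genes of the table, 3 passed the filter. *Klf12*, a CtBP-binding repressor, had 19.1 to 53.5 CPM and *Klf7* 6.88 to 20.6 CPM, while *Klf1*, the erythroid KLF, stayed at or below 0.5002 CPM. None was called against LL2 WT, as 8.54%, 13.7% and 13.4% of all tested genes were in clones #1, #2 and #3 and 0.464% in *NRF2* KO. *Klf12* was at −0.94 in clone #2 (adjusted p = 0.0215 from limma). *Klf14* is listed at 0 in all samples, and *Klf8*, *Klf15* and *Klf17* stayed at or below 0.0506 CPM, under the floor of 0.1 CPM. Of the related Sp factors, which bind the same GC boxes, *Sp3* (56.1 to 99.4 CPM), *Sp1* (37.1 to 58.7), *Sp2* (10.8 to 15.9) and *Sp4* (2.14 to 6.05) passed the filter. Of these 4 none was called by limma, and 1 had an unadjusted p under 0.05 in clone #3 (42.6% of all tested genes had). *Sp5* to *Sp9* did not pass it.

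Genes that act with or upstream of KLFs were read against the shares of all tested genes called, 8.54%, 13.7% and 13.4% in clones #1, #2 and #3 and 0.464% in *NRF2* KO. Of the cofactors and regulators of KLFs (Sin3, CtBP, histone acetylases and deacetylases, ubiquitin ligases, Mef2 and Foxo factors and others) 19 were tested and 0 were called by limma in any knockout line. At an unadjusted p under 0.05 they were 10, 10 and 11 in clones #1, #2 and #3 and 2 in *NRF2* KO, beside 36.3%, 42.9%, 42.6% and 11.2% of all tested genes. Their median log2 fold changes were 0.35, 0.00, 0.11 and 0.11. *Sin3a*, the corepressor that *Klf10* can recruit, averaged 33.4 ± 4.74 CPM in the parental line and between 26.1 ± 3.51 (clone #3) and 36.2 ± 6.47 CPM (*NRF2* KO) elsewhere. *Sin3b* averaged 96.0 ± 2.62 CPM in the parental line and 90.1 ± 2.86 CPM in *NRF2* KO. In clones #1, #2 and #3 it averaged 143 ± 4.50, 152 ± 7.44 and 174 ± 6.94 CPM. Every clone sample of *Sin3b* lay above every LL2 WT sample, as for 12.9% of all tested genes. Of the genes of TGF-beta and its early response, 20 were tested. In clones #1, #2 and #3, 1, 1 and 0 of them were called higher and 1, 3 and 2 lower, so that the calls in both directions are 2, 4 and 2 of 20. In *NRF2* KO 0 were called by limma and 1 had an unadjusted p under 0.05. *Tgfbr3*, a co-receptor of TGF-beta, fell in all 3 clones (by 1.71, 1.84 and 1.86 on the log2 scale) and *Tgfb3*, a ligand, by 1.21 in #2 and #3. *Tgfb2*, another ligand, was called in opposite directions, at 1.44 in #1 and −1.19 in #2, at 0.346 to 2.71 CPM on average. The median of the list was 0.28, 0.00, 0.20 and −0.10 in the 4 lines.

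Of the immediate early genes, which serum and stress induce within minutes, 24 were tested. In clones #1, #2 and #3, 3, 1 and 2 were called higher and 0, 4 and 3 lower, or 3, 5 and 5 of 24 in all, beside the 8.54%, 13.7% and 13.4% of all tested genes. In *NRF2* KO 0 were called by limma and 2 had an unadjusted p under 0.05 (11.2% of all tested genes had). *Dusp1*, a phosphatase that ends MAP kinase signals, rose in all 3 clones (1.16, 2.16 and 2.63), and its 9 values there (7.53 to 27.7 CPM) lay above those of the parental line (3.105 to 6.07 CPM). *Atf3*, a stress-induced factor, rose by 2.31 in #1 and 1.90 in #3. *Egr3* fell by 2.26 in #2 and by 2.68 in #3 (standard error 0.54), and *Nr4a2* by 1.61 and 1.198 (0.39). *Fos* and *Egr1* of the same list were far higher in LL2 WT replicate 3 than in the other parental samples. The part of that sample in these falls was not tested. The median of the list was 0.05, 0.06, 0.24 and −0.14. Adjusted p of the genes named from these lists ran from 1.4e-05 (*Dusp1* in #3) to 0.0456 (*Tgfb2* in #2), all from limma.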

How the data were processed

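RNA of 15 samples (5 lines, 3 biologic replicates each) was sequenced to a stated average of 30 M reads per sample. The authors pseudo-aligned the reads with kallisto to cDNA, in their methods of GRCm38.p6, whereas the submitters' processing notes name GRCm39; no coordinate here depends on which. They deposited CPM for each gene, already scaled, with fractional values that carry no read counts, so the depth of each sample is unknown. At the stated average, 3 reads equal 0.1 CPM, the floor used here, which covers counting error only.

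All columns and the 35880 gene symbols were used; 1 entry without a symbol was left out. The filter kept 14652 genes whose CPM summed over all samples to 3 or more. On log2(CPM + 0.1), limma 3.58.1 (R 4.3.3) was fitted with one mean per line, empirical Bayes with a trend and Benjamini-Hochberg adjustment over all genes tested. The procedure was tested on simulated data. Likeness to *Klf10* was measured over tested genes whose CPM averaged 1 or more. The p-values measure the spread between replicates of a clone.

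The members, lists and alternatives were chosen with earlier results of these data known. Genes named are the 10 members, the other Klf and Sp genes, per list the 2 highest rises and the 2 largest falls among called genes, and the 5 genes with the highest and 3 with the lowest r over samples, and the 5 highest over deviations. *Sin3a*, *Sin3b*, *Fos*, *Egr1* and the further genes with r above 0.8 were named after their values were seen. Some genes of the lists are not reported here. The alternatives were other pseudocounts (0.01, 0.5 and 1 CPM), filters, scalings and models, and leaving out each replicate. Transcripts came from GENCODE M21 and promoters from RefSeq, both on GRCm38. Python 3.11.15 with numpy 2.4.6 and pandas 2.3.3 was used.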

Additional observations from a re-analysis of the deposited data

Results flagged for a closer look

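The difference between knockout lines was itself past the thresholds for 2 members. *Klf5* was higher in *KEAP1* KO #2 than in #1 by 1.12 on the log2 scale and higher in #3 than in #1 by 1.06, although all 3 clones carry a knockout of the same gene. It was lower in *NRF2* KO than in *KEAP1* KO #1, #2 and #3, at −1.26, −2.39 and −2.32. *Klf13* was higher in *NRF2* KO than in *KEAP1* KO #2 by 1.00. These were 6 of 60 comparisons of the 10 members over the 6 pairs of knockout lines, each adjusted by limma over 14652 genes. Between 0.485% (*KEAP1* KO #3 against #2) and 11.2% (*NRF2* KO against *KEAP1* KO #3) of all tested genes were called in such pairs. No group has more than 3 samples, so no sample was tested as an outlier.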

How the results depend on the processing

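The tables hold no read counts, so depth enters only through the stated average, and values under about 0.1 CPM cannot be ranked. Of the fold changes of members under the alternatives, 671 kept their direction and side of the thresholds, 10 gained a call, 7 lost one and 32 changed sign. *Klf5* kept its calls in the *KEAP1* KO clones under every alternative run (1.64 to 1.95, 2.72 to 3.03 and 2.66 to 2.97). The cause of a change was not tested.

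With a pseudocount of 1 CPM, the genes called numbered 784, 1275 and 1303 in *KEAP1* KO #1, #2 and #3 and 44 in *NRF2* KO, beside 1251, 2006, 1967 and 68. In *NRF2* KO the count was 38 with a mean of at least 1 CPM, 173 with replicate 3 as a batch, 7 with only this line and LL2 WT in the fit, and 30 to 90 with a replicate left out (fewest without *NRF2* KO replicate 2). Members called in *KEAP1* KO #2 were 1 in place of 2 with a pseudocount of 1 CPM, no filter, or only this line and LL2 WT. With a replicate left out they were 1 to 3 in *KEAP1* KO #1 (3 without LL2 WT replicate 3) and 1 to 3 in #2. With all samples, 8.54% and 13.7% of all tested genes were called in these clones. The shares with a replicate left out are not given here, so these ranges cannot be set apart from all genes. Rescaling by the median ratio moved the all-gene median log2 fold change of *KEAP1* KO #1 from 0.11 to 0.01, beside which *Klf5* and *Klf6* kept their signs. *Klf10* in #2 and #3 was called under quantile normalization (both 1.02).

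*Klf2* in *KEAP1* KO #2 was 0.17 under quantile normalization, in place of −0.03. With a replicate left out, signs changed within these ranges. In *KEAP1* KO #1, *Klf3* ran from −0.0032 to 0.38 and *Klf9* from −0.029 to 0.69. In #2, *Klf2* ran from −0.39 to 0.51, *Klf11* from −0.35 to 0.57, *Klf4* from −0.41 to 0.14 and *Klf3* from −0.32 to 0.059. In #3, *Klf2* ran from −0.18 to 0.72, *Klf11* from −0.27 to 0.66 and *Klf3* from −0.13 to 0.25. In *NRF2* KO, *Klf2* ran from −0.20 to 0.71, *Klf13* from −0.36 to 0.21, *Klf3* from −0.18 to 0.30, *Klf11* from −0.92 to 0.13, *Klf9* from −0.37 to 0.37 and *Klf16* from −0.017 to 0.31.

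Replicate numbers are shared between lines, but the labels do not say that they pair samples. Deviations of samples with the same number had a median r of 0.28 over 30 pairs, beside −0.19 over 60 pairs with different numbers. Each knockout line had a same-number pair with LL2 WT under 0.1, that of replicate 1 (r from −0.02 to 0.09). The same-number pairs of replicates 2 and 3 with LL2 WT ran from 0.27 to 0.63. With the replicate block, 1597, 2288, 2270 and 179 genes were called, and the members called were 1, 3, 2 and 0, the gain being *Klf10* in *KEAP1* KO #2 (1.12, adjusted p = 0.046 from limma).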
